A study of Mus musculus with 3 samples.

Results

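Enzymes of the tricarboxylic acid (TCA) cycle and of mitochondrial fatty acid oxidation were followed in mouse diffuse gastric cancer. The set holds 40 genes taken by gene name. It comprises 36 enzymes and enzyme subunits and 4 regulators of their transcription. They are covered by 53 of the 39429 gene probes on the array and by 71 of its 43020 gene spots. All 40 had a probe well above background in at least 1 colour on every array, and so all 40 are among the 19434 genes tested. The tumours were 3 primary cancers from mice of the genotype Trp53loxP/loxP and Cdh1loxP/loxP with Atp4b-Cre+, aged 12 months. Their control was a pool of normal gastric mucosae from 5 mice of the same age with both floxed genes and no recombinase (Atp4b-Cre-), and that pool was measured on each array. Tumour RNA carried the red dye and pool RNA the green dye on all 3 arrays, so no dye was swapped. The recombinase is under the promoter of Atp4b, a gene of the acid-secreting parietal cell. The labels describe removal of stroma by mechanical means in EDTA-2Na at 30 mM for the normal mucosae and not for the tumours.

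The TCA cycle oxidises acetyl-CoA in the mitochondrial matrix and hands its electrons to the respiratory chain. Pyruvate dehydrogenase supplies acetyl-CoA from glucose, and beta-oxidation supplies it from fatty acids that carnitine carries across the mitochondrial membranes. In the stomach the parietal cell is filled with mitochondria that provide the ATP for acid secretion. The coactivators PGC-1alpha and PGC-1beta (Ppargc1a and Ppargc1b) act with the nuclear receptors ERRalpha (Esrra) and PPARalpha (Ppara) to switch on many of these genes in other tissues.

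Nearly all of these genes were lower in the tumours. A gene is said here to pass where its adjusted p was under 0.05, and to be called where it also differed at least 2-fold, that is by 1 on the log2 scale. Of the 40 genes, 37 passed as lower and 1 passed as higher, against 22.9% lower and 24.5% higher among all genes tested. With the 2-fold limit 33 were called lower and 0 higher, against 9.68% lower and 9.33% higher among all genes. The median log2 ratio of tumour over pool was -1.63 for the 40 genes and 0.05 for all genes. On replicates 1, 2 and 3 the median of the 40 was -1.60, -1.70 and -1.64, and 38 of them were negative on every tumour's array. At least 2-fold lower signals were seen on every array for 31 genes. The test used limma on 3 arrays. The pool is 1 sample, so its p-values leave out the variation among normal mice.

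The size of this difference depended on how the arrays were scaled, and its place among all genes did so less. The values given here are scaled with loess, a correction that follows signal brightness. The 40 genes were bright, with a median log2 signal of 12.01 in the pool against 8.18 for all genes. When each array was instead centred on the median of its gene spots, the median of all genes tested was 0.77 and that of the 40 genes was -0.45. Under that centring 6 of the 40 were called lower and 1, Idh1, higher, against 2.86% lower and 39.9% higher among all genes. Of all called genes 93.3% were higher, against 49.1% with loess. Acadl, Cs, Dlst, Idh3a, Mdh2, Pdhb and Sucla2 then moved above 0, where Idh1 and Cpt1b already lay with loess. With centring on spike-in controls, RNAs added in known amounts, the median of the 40 was -1.28. Of the 40, 26 were called lower, against 13.4% of all genes. The ratios of 37 genes moved by more than 1.5-fold with the former centring and those of 13 with the latter. In each of the 14 settings tried, 38 or 39 of the genes measured lay below the median of all genes. Median and spike-in centring differ by a constant on each array, and so do loess and centring loess ratios on the tested genes. Within each of these pairs that place could not change. The median of the 40 minus that of all genes was -1.67 with loess and -1.22 with median or spike-in centring.

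**Figure D1:**
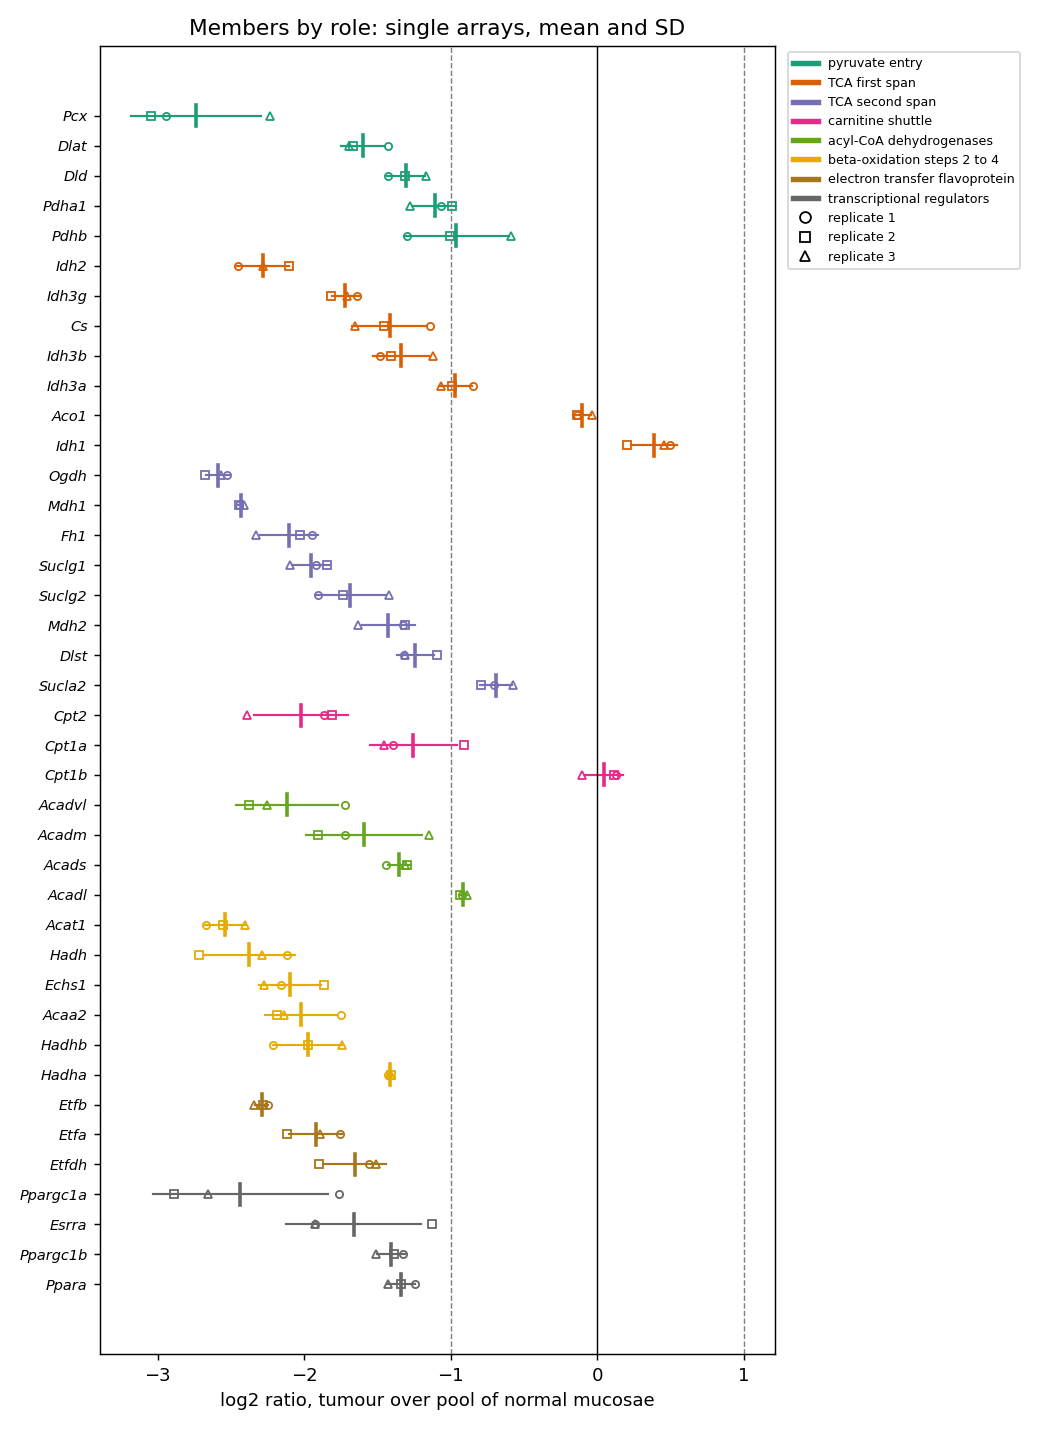
Log2 ratio of tumour over pool (horizontal axis) for the 40 genes, coloured by role. Open symbols are the 3 arrays, vertical bars the mean and horizontal lines the SD, and dashed lines mark 2-fold. The means of all but Idh1 and Cpt1b lie left of 0 with loess scaling, that of Aco1 only at -0.11, and Acadl, Cs, Dlst, Idh3a, Mdh2, Pdhb and Sucla2 were above 0 with centring on the array median.

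A few sequences identify what was measured and where the results turn on it. Several genes had probes that gave different ratios, and the opening 30 bases of the 60-base probes of Ogdh are shown because 1 of its 3 probes stood apart. They are printed as in the deposited files, with no capitals, and lie on chromosome 11 of mm9.
Ogdh at 6256511 to 6256570: cttcctccctcttttgacctccactgggac
Ogdh at 6256583 to 6256642: gaaaaaagaacaaccacctttgcattgcat
Ogdh at 6258910 to 6258969: attaatttataaaaaagaaattggtctggc
The first and the second lie side by side and gave mean log2 ratios of -2.59 and -2.88, and the probe farther along gave -0.76.

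The RefSeq promoter windows (GRCm38.p6) of 35 of the 40 genes were read over the 250 bases before the start, 42 windows in all. The ERR response element TCAAGGTCA, to which estrogen-related receptors bind, was on neither strand of any of them, and was in 0.387% of all 32851 windows. The palindromic core CGCATGCG of the site of NRF1, a regulator of nuclear genes for mitochondrial proteins, was in 5 of the 42 windows and in 1.55% of all windows. These 5 windows belong to 4 genes, Acadm, Etfdh, Ogdh and Ppara, each called lower, as were 33 of the 40 genes. The windows of Ogdh overlap and hold the same core at the same place. The stretches are shown in the direction of the gene with the core in capitals.
Acadm, chr3:153944775-153944822, minus strand: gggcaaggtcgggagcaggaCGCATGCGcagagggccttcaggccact
Etfdh, chr3:79628867-79628914, minus strand: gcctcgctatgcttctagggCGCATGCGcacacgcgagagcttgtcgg
Ogdh, chr11:6292524-6292571, plus strand: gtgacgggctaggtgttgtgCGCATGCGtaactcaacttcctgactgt
Ppara, chr15:85735726-85735773, plus strand: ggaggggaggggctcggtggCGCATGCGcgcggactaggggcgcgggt
A match of letters is a description of the window and no evidence of binding.

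Pyruvate enters the mitochondrion as fuel for the cycle through pyruvate dehydrogenase, and as a source of oxaloacetate through pyruvate carboxylase. Of these 5 genes 4 were called lower and all 5 passed as lower, with a median log2 ratio of -1.30. Pcx, pyruvate carboxylase, had the lowest ratio of the 40 genes, with -2.94, -3.04 and -2.23 on replicates 1, 2 and 3. Its mean of -2.74 ± 0.44 (SD, n = 3, as for all means that follow) is a 6.68-fold difference (adjusted p = 0.00138). Replicate 3 had the smallest difference for Pcx, and on the signal scale its tumour value of 11.30 stood above 10.49 and 10.44 in the others. The subunits of pyruvate dehydrogenase fell less. Dlat, its E2 core, had ratios of -1.43, -1.67 and -1.70 (mean -1.60 ± 0.15, adjusted p = 0.00118). Dld, the E3 subunit that the complex shares with 2-oxoglutarate dehydrogenase, had -1.43, -1.31 and -1.17 (mean -1.30 ± 0.13, adjusted p = 0.00165). Pdha1, the catalytic E1 alpha subunit, had -1.07, -0.99 and -1.28 (mean -1.11 ± 0.15, adjusted p = 0.00262). With spike-in centring Pdha1 and Dld passed but stayed under 2-fold, at -0.84 and -0.96.

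Pdhb, the E1 beta subunit, was the pyruvate gene that passed without reaching 2-fold. Its ratios were -1.30, -1.0 and -0.59, a mean of -0.96 ± 0.36 (adjusted p = 0.0115), or 0.40 with median centring. The arrays spread widely here. Without replicate 2 the test was not passed (-0.94, adjusted p = 0.0531), and without replicate 3 the gene was called (-1.15). Its other 2 probes disagreed with each other. The neighbouring probe was called at -1.15 ± 0.28, whereas the probe on chromosome 14 at 9003605 to 9003664 had 0.20 ± 0.17 and did not pass (adjusted p = 0.178). That probe was dim, with a log2 signal of 6.78 in the pool against 12.55 at the probe used. The annotated target of the dim probe is another transcript record than that of the other 2. This dim probe begins as follows, and is shown since it carries a ratio of the opposite sign.
Pdhb at 9003605 to 9003664: gtgcagctatggtatgtaatatttatggag

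The opening reactions of the cycle, from citrate synthase to isocitrate dehydrogenase, were the most mixed. Of 7 genes 4 were called lower, 5 passed as lower and 1 as higher, with a median of -1.34. Idh2, the mitochondrial NADP-dependent isocitrate dehydrogenase, had ratios of -2.45, -2.10 and -2.28 (mean -2.28 ± 0.17, adjusted p = 0.000726). Idh1 makes the same reaction in the cytosol and had 0.49, 0.20 and 0.45 (mean 0.38 ± 0.16, adjusted p = 0.0406). All 3 tumours lay above the pool, but 8 of the 13 other settings left Idh1 short of the test. Its adjusted p was 0.145, 0.0695 and 0.143 without replicates 1, 2 and 3, and 0.221 with spike-in centring. With median centring Idh1 was instead called higher, at 1.32 (adjusted p = 0.000882). The difference Idh2 minus Idh1 was -2.95, -2.31 and -2.74 within the 3 arrays, and its mean ran from -2.66 to -1.98 over 5 ways of scaling. Aco1, the cytosolic aconitase and iron regulatory protein, had -0.14, -0.14 and -0.036 and did not pass (mean -0.11 ± 0.06, adjusted p = 0.366). Its log2 signals of 6.56 in the pool and 6.45 in the tumours lay near the lowest signals well above background, 6.10 and 5.62. This limits the difference its probe can show, and with spike-in centring Aco1 passed as lower at -0.88.

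Citrate synthase and the NAD-dependent isocitrate dehydrogenase of the cycle were lower by smaller amounts. Cs had -1.14, -1.46 and -1.65 (mean -1.42 ± 0.26, adjusted p = 0.00261), and was at 0.24 with median centring. The enzyme IDH3 has a catalytic alpha subunit and regulatory beta and gamma subunits. Idh3g had -1.64, -1.82 and -1.71 (mean -1.72 ± 0.09, adjusted p = 0.000874). Idh3b had -1.49, -1.41 and -1.12 (mean -1.34 ± 0.19, adjusted p = 0.00212). Idh3a had -0.85, -0.99 and -1.07, and its mean of -0.97 ± 0.11 passed just short of 2-fold (adjusted p = 0.00302), with -1.03 and a call without replicate 1 and 0.22 under median centring. The gamma subunit was further down than the alpha subunit on each array, by -0.79, -0.83 and -0.64. For beta against alpha the same difference was -0.37 ± 0.29 and came near 0 on replicate 3, at -0.06.

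The later reactions of the cycle, from 2-oxoglutarate to oxaloacetate, had 7 of 8 genes called lower and all 8 passed as lower, with a median of -1.82. Ogdh, the E1 subunit of 2-oxoglutarate dehydrogenase, gave -2.52, -2.68 and -2.57 (mean -2.59 ± 0.08, adjusted p = 0.000458). This was the second lowest ratio of the 40, with little spread between tumours. Its distal probe, shown in the sequences, gave -0.76, -0.73 and -0.80 and was dimmer, at 9.01 against 14.17 in the pool. The E2 subunit Dlst had -1.32, -1.10 and -1.31 (mean -1.24 ± 0.13, adjusted p = 0.00181), or 0.07 with median centring. At the probe used, Ogdh differed from Dlst by -1.35 ± 0.20 within arrays and from Dld by -1.29 ± 0.17, on all 3 arrays each. At the distal probe the mean of -0.76 lay above the means of Dlst and Dld instead, so the direction depends on the probe.

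Succinyl-CoA ligase joins a shared alpha subunit (Suclg1) to a beta subunit that makes either GTP (Suclg2) or ATP (Sucla2). Suclg1 had -1.92, -1.85 and -2.10 (mean -1.95 ± 0.13, adjusted p = 0.000813). Suclg2 had -1.90, -1.73 and -1.42 (mean -1.69 ± 0.24, adjusted p = 0.00162). Sucla2 had -0.70, -0.79 and -0.57 (mean -0.69 ± 0.11, adjusted p = 0.0068), and was at 0.61 and passed as higher with median centring (adjusted p = 0.0135). On each array the GTP-linked subunit was the lower of the pair, by -1.20, -0.94 and -0.85. Fumarase, encoded by Fh1, had -1.95, -2.03 and -2.33 (mean -2.10 ± 0.20, adjusted p = 0.000909), and a second probe nearby gave -1.95 ± 0.21. Malate dehydrogenase exists as a cytosolic enzyme (Mdh1) and a mitochondrial one (Mdh2), and together they shuttle reducing equivalents across the membrane. Mdh1 had -2.44, -2.45 and -2.41, a mean of -2.43 with an SD of only 0.019 (n = 3, adjusted p = 0.000458). Mdh2 had -1.33, -1.31 and -1.64 (mean -1.43 ± 0.18, adjusted p = 0.00173). With median centring Mdh2 passed as higher, at 0.44. In this pair the cytosolic form was therefore the lower, by -1.01 ± 0.20 within arrays, whereas for isocitrate dehydrogenase the mitochondrial form was.

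Fatty acids reach the matrix through the carnitine shuttle, in which CPT1 of the outer membrane makes acylcarnitine and CPT2 of the inner membrane turns it back. Both enzymes were called lower in their widely expressed forms. Cpt2 had -1.86, -1.81 and -2.39 (mean -2.02 ± 0.32, adjusted p = 0.00157), and a dimmer second probe gave -1.14 ± 0.15. Cpt1a, the liver-type enzyme, had -1.40, -0.91 and -1.46 (mean -1.25 ± 0.30, adjusted p = 0.0043). Replicate 2 was the tumour with the highest Cpt1a. The array carries 10 spots of that probe, with SDs of 0.07, 0.04 and 0.05 within the 3 arrays. These give the noise between spots of an array, and not that between arrays or labellings. Cpt1b, the muscle-type enzyme, had 0.13, 0.11 and -0.10 and did not pass (mean 0.045 ± 0.130, adjusted p = 0.730). Its pool signal was well above background on 1 of the 3 arrays, and with Agilent's processed signals it passed as higher at 0.65 (adjusted p = 0.0333). The difference Cpt1a minus Cpt1b was -1.30 ± 0.26, and ran from -2.0 to -0.10 over 5 ways of scaling.

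The acyl-CoA dehydrogenases carry out the opening step of beta-oxidation on chains of different length. Of 4 genes 3 were called lower and all passed as lower, with a median of -1.47. Acadvl, for very long chains, had -1.72, -2.38 and -2.25 (mean -2.12 ± 0.35, adjusted p = 0.00163). Acadm, for medium chains, had -1.72, -1.91 and -1.15 (mean -1.59 ± 0.40, adjusted p = 0.00394), with the smallest difference in replicate 3. Acads, for short chains, had -1.44, -1.30 and -1.31 (mean -1.35 ± 0.08, adjusted p = 0.00126). Acadl, for long chains, stayed within 2-fold at -0.93, -0.93 and -0.89 (mean -0.92 ± 0.025, adjusted p = 0.00268), and was at 0.25 with median centring. Acadvl was lower than Acadl on each array, by -1.20 ± 0.35.

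Hydration, oxidation and thiolysis complete a round of beta-oxidation, and all 6 genes of these steps were called lower, with a median of -2.06. Acat1, the acetoacetyl-CoA thiolase, had -2.67, -2.55 and -2.40 (mean -2.54 ± 0.14, adjusted p = 0.000542). Hadh, the short-chain 3-hydroxyacyl-CoA dehydrogenase, had -2.12, -2.72 and -2.29 (mean -2.37 ± 0.31, adjusted p = 0.00109). Acat1 and Hadh were called lower under every alternative setting. Echs1, the short-chain enoyl-CoA hydratase, had -2.16, -1.86 and -2.28 (mean -2.10 ± 0.21, adjusted p = 0.000961). Acaa2, the medium-chain thiolase, had -1.75, -2.19 and -2.14 (mean -2.02 ± 0.24, adjusted p = 0.00112). Its 10 spots on each array had SDs of 0.083, 0.046 and 0.038.

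Hadha and Hadhb encode the alpha and beta subunits of the mitochondrial trifunctional protein, which handles long chains. They are transcribed head to head from neighbouring starts, and the stretch between them is shown because both fell. The RefSeq starts, at 30154980 on the minus strand for Hadha and 30155253 on the plus strand for Hadhb, are 273 bases apart on chromosome 5 of GRCm38.p6. The 250 bases before Hadhb, chr5:30155003-30155252 on the plus strand, read as follows, with no capitals since no motif that was searched lies in them.
Hadha and Hadhb: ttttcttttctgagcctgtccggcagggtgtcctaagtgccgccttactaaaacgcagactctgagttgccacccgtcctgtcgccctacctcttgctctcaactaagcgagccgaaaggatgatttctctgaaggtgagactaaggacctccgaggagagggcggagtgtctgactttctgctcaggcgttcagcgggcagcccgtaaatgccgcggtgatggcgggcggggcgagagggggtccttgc
Hadhb had -2.21, -1.98 and -1.74 (mean -1.98 ± 0.23, adjusted p = 0.00114). Hadha had -1.43, -1.41 and -1.41, a mean of -1.42 with an SD of 0.013 (n = 3, adjusted p = 0.00106). The beta subunit was the lower on all 3 arrays, by -0.78, -0.57 and -0.34, and the difference was -0.23 at the other end of its range over 5 ways of scaling. The files assign the Hadhb and Etfb probes to predicted transcripts as well as to these genes, so signal from near-identical copies may be included.

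Electrons from the acyl-CoA dehydrogenases pass to the electron transfer flavoprotein and on to ubiquinone. Its 3 genes were called lower, with a median of -1.92. Etfb, the beta subunit, had -2.25, -2.28 and -2.34 (mean -2.29 ± 0.05, adjusted p = 0.00052). Etfa, the alpha subunit, had -1.75, -2.12 and -1.89 (mean -1.92 ± 0.18, adjusted p = 0.000985). Etfdh, the ubiquinone oxidoreductase, had -1.56, -1.90 and -1.51 (mean -1.66 ± 0.22, adjusted p = 0.00147). In Etfa and Etfdh replicate 2 was the lowest tumour, as it was in Hadh, Acadvl, Acadm, Acaa2 and Acadl. In the other fatty acid oxidation genes another tumour was the lowest. Replicate 2 was the highest tumour in Cpt1a, Cpt2, Echs1 and Acads.

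**Figure D2:**
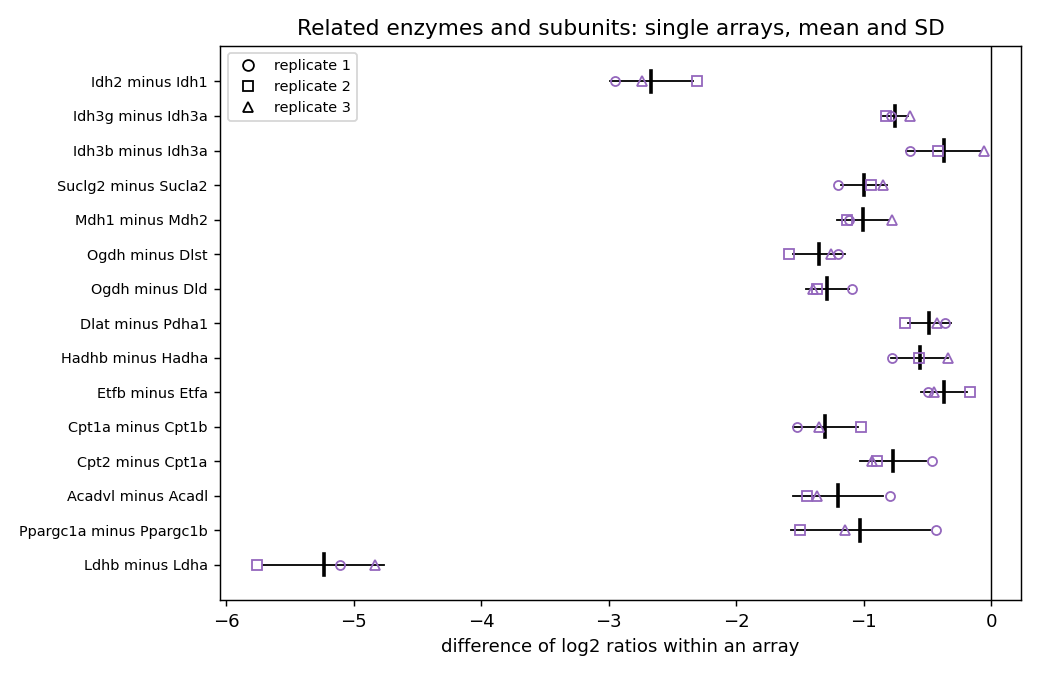
Difference between the log2 ratios of 2 related genes within an array (horizontal axis), with open symbols for the 3 arrays, a bar for the mean and a line for the SD. In each pair the gene with the lower mean with loess scaling is written first, and this order sets the sign of the mean. The single arrays have that sign too. They run from -0.06 for Idh3b minus Idh3a in replicate 3 to -5.76 for Ldhb minus Ldha in replicate 2. The mean of Ppargc1a minus Ppargc1b lies above 0 under another scaling.

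The plot of related genes holds 15 pairs. With 3 arrays an exact sign-flip test of a single pair cannot give a two-sided p below 0.25, so the pairs are described by their values on each array. The widest member pair was Idh2 minus Idh1, at -2.66 ± 0.33. Cpt2 minus Cpt1a was -0.77 ± 0.26, Dlat minus Pdha1 was -0.49 ± 0.17 and Etfb minus Etfa was -0.37 ± 0.18. Outside the set, Ldhb minus Ldha, the heart and muscle subunits of lactate dehydrogenase, was -5.23 ± 0.48.

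All 4 regulators were called lower, with a median of -1.53, and with median centring 2 of them, Ppargc1a and Ppargc1b, were. Ppargc1a had -1.76, -2.89 and -2.66 (mean -2.43 ± 0.60, adjusted p = 0.00317), the widest spread between tumours in the set, with replicate 1 the highest. Esrra had -1.92, -1.13 and -1.93 (mean -1.66 ± 0.46, adjusted p = 0.00477), with replicate 2 the highest. The tumours with the smallest difference were thus not the same for the coactivator and its receptor. Ppargc1b had -1.33, -1.39 and -1.51 (mean -1.41 ± 0.09, adjusted p = 0.00121). Ppara had -1.24, -1.34 and -1.43 (mean -1.34 ± 0.09, adjusted p = 0.00135).

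The sizes for the dim regulators rest on how background was handled. Ppargc1b was the dimmest gene called lower in the set, with log2 signals of 7.53 in the pool and 6.12 in the tumours. Its ratio was -2.62 with a background offset of 0 and -3.30 with Agilent's processed signals or the authors' deposited table, which hold the same ratio. Ppara moved to -1.98 with the processed signals. Ppargc1a and Ppargc1b therefore cannot be ranked: their difference was -1.03 ± 0.54 with loess and 0.35 at the other end of its range. Probes of these genes differed as well. Ppara had 3 probes, all called lower, with -2.68 ± 0.25, -1.34 ± 0.09 and -1.69 ± 0.05. The second probe of Ppargc1a was not well above background in any tumour and gave at least a 1.41-fold lower signal, and the median of both probes was -1.46. The pairs of probes that differed most are shown by their opening 30 bases, since the choice of probe sets the size.
Ppara on chromosome 15, 85632110 to 85632169: ctttgaaaacctacaagtcaaggtgtggcc
Ppara on chromosome 15, 85632534 to 85632593: aaatgctcctctaggcccctcctttggcag
Ppargc1a on chromosome 5, 51848928 to 51848987: ccccttcaaatggcagcatttccatgaaga
Ppargc1a on chromosome 5, 51846926 to 51846985: aggccaatgcagctaattttgacagctgca

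**Figure D3:**
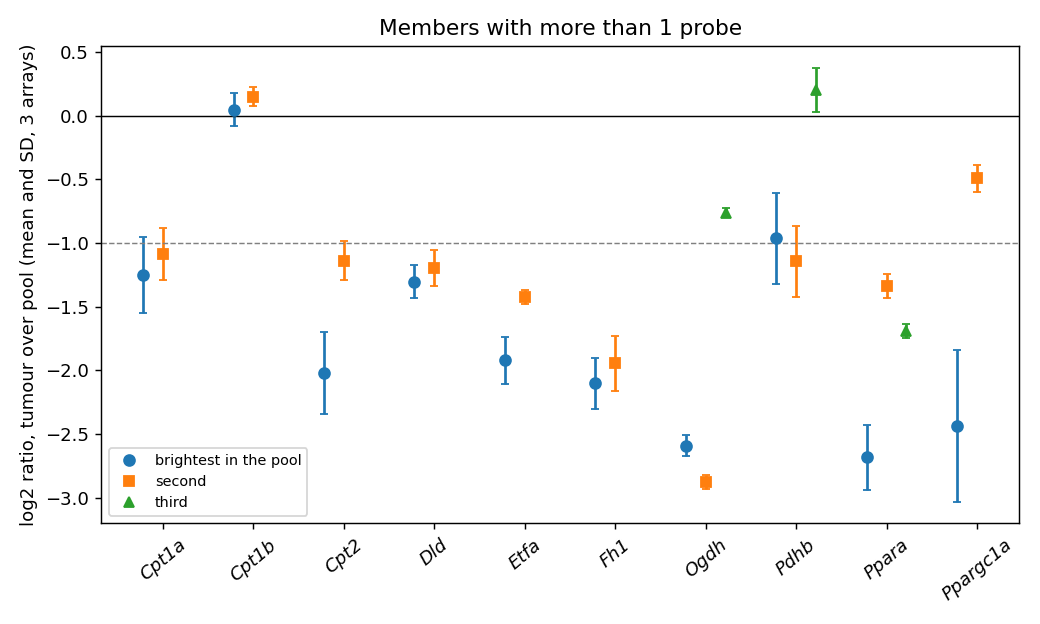
Mean log2 ratio of tumour over pool and SD over 3 arrays (vertical axis) for each probe of the 10 genes with more than 1 probe, marked by brightness in the pool. The 2 brighter Ogdh probes sit at -2.59 and -2.88 and the third at -0.76, and the third Pdhb probe is the one above 0 apart from those of Cpt1b. With centring on the array median Pdhb itself was above 0.

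Of the 10 genes with several probes, 3 had 3 probes. The probes of Cpt1a (-1.25 and -1.09), Dld (-1.30 and -1.20), Etfa (-1.92 and -1.42), Fh1 and Cpt2 were each called lower. The genes whose probes differed in call were Ogdh, Pdhb and Ppargc1a.

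The rest of the same pathways was measured from lists of genes outside the set. Of 26 other genes of pyruvate and TCA metabolism, 14 were called lower and 2 higher, with a median of -1.44. With median centring 4 were called lower and 5 higher, with a median of -0.12. Among all genes that centring gave 2.86% called lower, 39.9% called higher and a median of 0.77. Me3, the mitochondrial malic enzyme, was lowest at -5.29 ± 0.09 and Ldhb followed at -5.13 ± 0.37. Mpc1, part of the mitochondrial pyruvate carrier, was at -2.52 and Sdhb of succinate dehydrogenase at -2.35. Of 35 other genes of fatty acid oxidation, 21 were called lower and 1 higher, with a median of -1.45. With median centring 8 were called lower and 4 higher, with a median of -0.40. Acacb, the acetyl-CoA carboxylase that restrains CPT1, had -4.24 ± 0.21, and Oxct1, the enzyme of ketone body use, had -4.10 ± 0.44. Cd36, a fatty acid transporter, was at -3.36 and Acadsb at -3.25. The gene called higher, Acsl4, which activates polyunsaturated fatty acids, had 1.97 ± 0.40 and was named after its value was seen.

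Of 17 other regulators of mitochondrial genes, 3 were called lower and 0 higher, 8 passed as lower and 1 as higher, and the median was -0.23. With median centring 2 were called lower and 4 higher, with a median of 0.58. Among all genes that centring gave 2.86% called lower, 39.9% called higher and a median of 0.77. The estrogen-related receptors Esrrg and Esrrb had -5.72 ± 0.17 and -3.25 ± 0.21, so that all 3 receptors of that family, Esrra included, were called lower with loess scaling. Sirt3, a mitochondrial deacetylase, was called at -1.44 ± 0.15. Esrrg is also on the list of parietal cell markers.

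The respiratory chain and glycolysis stand beside the set as the pathways that follow and precede it. All 37 respiratory chain genes were called lower, with a median of -2.21 and a range of -2.90 to -1.57, and 34 with spike-in or 3 with median centring. The lowest was Ndufb9 of complex I, at -2.90 ± 0.13. Of 19 genes of glycolysis, 3 were called higher and 2 lower, with a median of -0.22. With spike-in centring 3 were called higher and 0 lower (median 0.11), against 14.7% higher and 13.4% lower among all genes (median -0.07). With median centring 9 were called higher and 0 lower (median 0.95), against 39.9% higher and 2.86% lower among all genes (median 0.77). Slc16a3, a lactate exporter, had 2.69 ± 1.21, Hk2 had 1.49 ± 0.87 and Aldoc 1.33 ± 0.31, while Hk1 had -1.20 ± 0.44. No test compared these lists with the set.

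**Figure D4:**
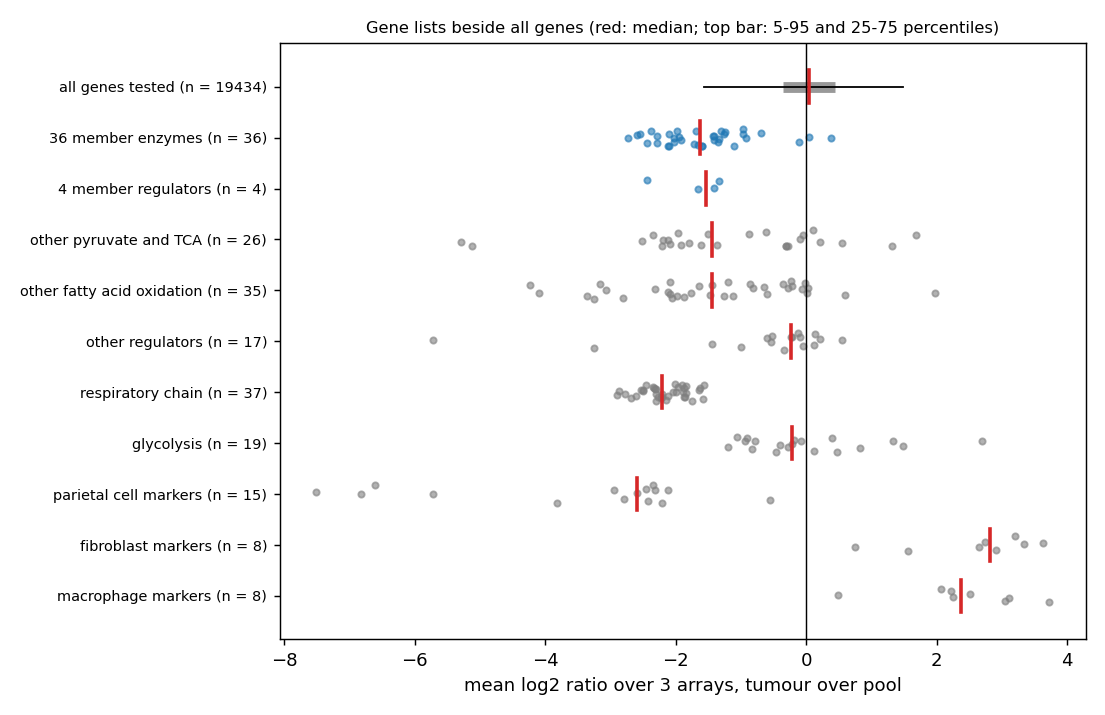
Mean log2 ratio of tumour over pool on 3 arrays (horizontal axis) for each gene of the set and of other lists, with a red bar for the median. The top bar gives the percentiles of all 19434 genes tested. The medians of the set, of the respiratory chain (-2.21) and of parietal cell markers (-2.59) lie left of 0, and those of fibroblast (2.82) and macrophage (2.37) markers lie right of it. With centring on the array median the glycolysis and other regulator medians, left of 0 here, lie right of it. The median of all genes then lies at 0.77.

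Markers of parietal, chief, mucous and gastric endocrine cells were mostly lower, as the set was. In bulk tissue, fewer cells of a type and less RNA per cell cannot be told apart. Of 15 parietal cell markers 14 were called lower and all passed as lower, with a median of -2.59. Their summed signal was 494395 to 529859 in the pool and 24272.6 to 28110.4 in the tumours, where Slc26a7 and Hrh2 were not well above background on any array. Over the 40 genes of the set the sums were 381599 to 423573 and 111527 to 114462. On the log2 scale the sums differed by -4.31 for the parietal markers and by -1.83 for the set. Chief, mucous and gastric endocrine cell markers had medians of -3.88, -3.52 and -3.71, with 6 of 7, 7 of 9 and 5 of 6 called lower. Pancreatic acinar markers were also high in the pool, with a summed signal of 694352 to 809665 against 6821.81 to 7765.94 in the tumours, and 6 of 8 were called lower.

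Markers of stromal and immune cells moved the other way. Stroma was removed from the normal mucosae and not from the tumours. The part of that preparation in these differences cannot be told apart from that of the tumour. Fibroblast markers had 7 of 8 called higher, and their summed signal was 16459.0 to 18022.2 in the pool and 51015.6 to 163955 in the tumours. Of 8 macrophage markers 7 were called higher, with a median of 2.37. Called higher were also 5 of 7 neutrophil, 5 of 6 B and plasma cell, 4 of 8 T and NK cell, 3 of 7 endothelial and 4 of 7 smooth muscle markers. Of 3 mesothelial markers 2, Msln (6.66) and Wt1 (2.04), were called higher and 1, Krt19 (-1.27), lower. Their summed signal was 83546.1 to 89943.4 in the pool and 69314.2 to 88650.3 in the tumours. The pool sum came mostly from Krt19, with a log2 signal of 16.39 there against 8.59 for Msln and 6.52 for Wt1. Striated muscle and adipocyte markers gave no single direction. Of 4 striated muscle markers 1 was called higher and 1 lower, of 6 white adipocyte markers 1 and 2, and of 4 brown adipocyte markers 1 and 1. The part of these cell types in the lower values of the set was not tested.

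As a check of the labels, Atp4b had a log2 ratio of -6.83 ± 0.14 and Cdh1 one of -4.24 ± 0.85, and Trp53 did not pass at -0.21 ± 0.15 (n = 3). Well above background were 52.5 to 54.2% of spots in green and 64.0 to 66.8% in red, and 0 were saturated. In the set, 39 genes were well above background in both colours on every array. Their signals were steady in the pool, with a median SD of 0.08 for the 40 genes, against 0.15 in the tumours and 0.17 for the ratio. All arrays shared 1 slide, so no batch could be tested.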

How the data were processed

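RNA of 3 tumours was compared with pooled mucosal RNA on 2-colour Agilent arrays. Per the file headers, the deposited intensity values are mean spot signals with median local backgrounds, and coordinates are mm9. Per the submitters' processing notes the scanner software was Agilent Feature Extraction 9.5.3, and per the file headers it was 10.7.3.1. The authors' deposited table gives each tumour's log2 ratio to the pool, within 0.01 of the scanner's log10 ratio (put on the log2 scale) at 99.8 to 99.9% of filled probes, and blank at 48.3 to 49.6% of probes.

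Signals were corrected with normexp (offset 50) and loess within arrays in limma 3.58.1 (R 4.3.3). Control spots had weight 0, 157 to 190 outlier-flagged spots an array were dropped, and a probe's spots averaged. Probes were kept (24164) where either colour was well above background on every array, and the brightest stood for its gene. RefSeq accessions named 26055 of 39429 probes. The test was lmFit with eBayes on the ratio against 0 (two-sided), adjusted by Benjamini-Hochberg across 19434 genes. Fits were checked on simulated data. The offset pulls ratios of dim genes towards 0. The number of arrays limits the precision, and by the labels each tumour is a biological replicate.

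The set, lists and tests were chosen with earlier results of these data known. Named are all 40 genes, up to 4 called genes with the largest ratio per list, and Cdh1, Trp53 and Atp4b as label checks; exceptions are stated, and a few genes are not reported here. Alternatives were offset 0, Agilent's processed signals, the authors' table, 3 centrings, 2 background filters, 2 ways of combining probes, and leaving out each replicate.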

Additional observations from a re-analysis of the deposited data

How the results depend on the processing

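Over 13 alternatives, 6 genes kept the 2-fold call in every one: Acat1, Hadh, Ogdh, Pcx, Ppargc1a and Ppargc1b. The set's median log2 ratio was -1.71 with an offset of 0, -1.81 with the scanner's processed signals, -1.83 in the authors' table (39 genes of the set), -0.45 with median centring and -1.28 with spike-in centring, and -1.64 to -1.55 when a replicate was left out. With median centring 6 genes were called lower and 1 higher, against 2.86% and 39.9% of all genes, and 21 passed as lower and 3 as higher. Of all called genes 93.3% were higher, against 49.1% with loess. Values that moved from below to above 0 were 0.25 for Acadl, 0.24 for Cs, 0.071 for Dlst and 0.22 for Idh3a. Also moved were Mdh2 at 0.44, Pdhb at 0.40 and Sucla2 at 0.61. Idh1 and Cpt1b, above 0 with loess too, were then at 1.32 and 0.093, and Idh1 was the gene called higher. With spike-in centring 7 of the 33 calls were lost, and Acadl, Cs, Idh3a, Mdh2, Pdhb and Sucla2 did not pass. The pass of Idh1 as higher was lost with offset 0, the processed signals, the authors' table, spike-in centring, centring on the tested genes and each replicate left out, so that the count passing as higher was 0 in those except the processed signals, where Cpt1b passed. Counts called lower under the other alternatives were 33 to 35. The cause of these shifts was not tested. No paired analysis was possible because the pool is the same control on every array. Dim probes limit Aco1 and Cpt1b, whose signals lay near background.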
